A study of Mus musculus with 2 samples.

Results

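Ucp1, Ucp2 and Ucp3 encode the uncoupling proteins, and they make up the 3 members described here out of 54532 gene rows in the deposited count table. They were chosen by symbol as a gene family, with earlier results of these data known. All 3 were among the 12973 genes that averaged 1 CPM or more over both libraries (counts scaled per unit library size of 1000000). The study profiled interscapular brown adipose tissue, a fat depot that makes heat, of C57BL/6J mice at an age of 1 month, all labelled male. The rheb BAD KO group carried a Cre recombinase driven by the Ucp1 promoter together with Rheb alleles flanked by loxP sites (RhebFL/FL), so that Rheb, which encodes a GTPase upstream of the growth kinase complex mTORC1, is deleted in cells in which that promoter is active. The control group consisted of rheb FL/FL littermates, and the title gives them no Cre. Each group was 1 bulk RNA library from the pooled tissue of 3 mice, so no spread between mice can be measured, no test of the genotypes is possible, and every interval below covers counting error only.

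Uncoupling proteins are carriers of the SLC25 family in the inner mitochondrial membrane. UCP1 lets protons return to the matrix without ATP synthesis, which turns fuel oxidation into heat; it is opened by fatty acids, closed by purine nucleotides, and is the defining protein of brown and beige adipocytes. UCP2 is expressed in many tissues, with high levels in immune cells and spleen, and UCP3 mainly in skeletal muscle, brown fat and heart. Both have been linked to the export of metabolites, to fatty acid handling and to the control of reactive oxygen, and neither replaces UCP1 in heat production.

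The 3 genes sit at 2 places in the mouse genome. On mm10, Ucp1 (ENSMUSG00000031710) spans chromosome 8, 83290352 to 83298452, on the plus strand, in 6 exons and with 1 annotated transcript. Ucp3 (ENSMUSG00000032942) spans chromosome 7, 100472990 to 100486432, and Ucp2 (ENSMUSG00000033685) follows it on the same strand at 100493337 to 100502020, with 6904 bases between them. The promoter sequences are shown because the Ucp1 promoter also drives the Cre of the knockout mice, and because Ucp3 and Ucp2 are tandem neighbours whose transcripts lay on opposite sides of the control level. They are the 250 bases before the RefSeq start on GRCm38.p6, the assembly of mm10, plus strand, at chr8:83290098-83290347, chr7:100493108-100493357 and chr7:100472741-100472990. Capitals mark AGGTCA, the core motif bound by nuclear receptors, and TGACG, the core of the cyclic AMP response element, each searched on both strands (TGACCT and CGTCA).
Ucp1: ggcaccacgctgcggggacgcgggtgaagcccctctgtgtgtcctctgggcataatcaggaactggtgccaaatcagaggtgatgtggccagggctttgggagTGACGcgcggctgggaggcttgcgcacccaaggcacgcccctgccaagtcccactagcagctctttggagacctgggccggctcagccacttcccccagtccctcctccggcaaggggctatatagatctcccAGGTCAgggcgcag
Ucp2: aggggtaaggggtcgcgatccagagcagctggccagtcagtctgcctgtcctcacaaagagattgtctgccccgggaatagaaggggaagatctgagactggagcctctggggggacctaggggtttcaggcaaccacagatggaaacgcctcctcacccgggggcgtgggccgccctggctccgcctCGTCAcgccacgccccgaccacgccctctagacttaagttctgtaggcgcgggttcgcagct
Ucp3: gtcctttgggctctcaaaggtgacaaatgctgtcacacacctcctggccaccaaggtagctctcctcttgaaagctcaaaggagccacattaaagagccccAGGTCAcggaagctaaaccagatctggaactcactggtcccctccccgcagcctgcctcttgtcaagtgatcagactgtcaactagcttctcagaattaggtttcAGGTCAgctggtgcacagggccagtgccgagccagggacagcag

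The Ucp1 window held 1 AGGTCA and 1 TGACG, the Ucp2 window 1 CGTCA, and the Ucp3 window 2 copies of AGGTCA, with no overlap between motifs. Of 32817 promoter windows of the same length in the RefSeq table, 14.0% held AGGTCA and 17.7% held TGACG on either strand. The windows of Ucp1 and Ucp2 were 64.8% and 63.6% G or C with 12 and 16 CG steps, and the Ucp3 window was 54.8% G or C with 3 CG steps, against medians of 52.4% and 6 over all windows. GGGCGG, the GC box, was in the Ucp2 window alone among the 3 members and in 32.7% of all windows. CACGTG, an E-box, and TATAA were in none of the 3 and in 6.02% and 22.8% of all windows. Only these exact letters were searched, so the similar TATATA near the end of the Ucp1 window was not counted. The well known Ucp1 enhancer lies further upstream and is outside this window. These matches are letters in a sequence, and no binding was measured.

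The libraries differed in more than the genotype label. The knockout library held 23699316 counts and the control library 21855229. Rheb, the targeted gene, had 568 counts (25.1 CPM) in the knockout library and 1037 counts (45.3 CPM) in the control library, a ratio of 0.553 (95% counting interval 0.499 to 0.613). Xist, which silences an X chromosome in female cells, had 4 counts in the knockout library and 7452 in the control library, while the Y-linked Eif2s3y had 2653 in the knockout and 0 in the control library, so the control library went against its male label. Genotype and sex-linked expression therefore cannot be told apart in any difference below. All 13 brown adipocyte markers were detected in both libraries, and their summed level was 3465 CPM in the knockout and 3496 CPM in the control library. Cidea, the most abundant of them, had 1096 CPM in the knockout and 1601 CPM in the control library. The median log2 ratio of the 13 was 0.39, with 3 counted as higher and 2 as lower by the rule below. The similar sums therefore do not show equal brown adipocyte content. Ratios are of counts scaled with TMM factors, which set the libraries to a common size. By the size rule used here a gene counts as higher or lower in the knockout library when log2 of CPM plus 0.5 differs by at least 1.5-fold and the counting interval excludes 1.

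Ucp1 was by far the most abundant of the 3 transcripts and was modestly more abundant in the knockout library. It had 65375 counts in the knockout library (2887 CPM, 95% Poisson interval 2865 to 2909) and 50564 in the control library (2211 CPM, 2192 to 2230). The ratio was 1.31 (1.29 to 1.32), below 1.5-fold, so Ucp1 did not count as higher by the size rule. The knockout mice alone carry Ucp1-Cre, whose construct the labels do not describe, and reads from it cannot be told apart from those of the native gene in the Ucp1 row. Fewer cells of a type and less RNA per cell cannot be told apart in such bulk libraries. Among 21905 nuclear protein-coding genes it ranked 6th by counts in the knockout library and 17th in the control library. Per exon length it ranked 6th with 1765 RPKM (CPM per 1000 exon bases) in the knockout and 12th with 1351 RPKM in the control library.

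**Figure D1:**
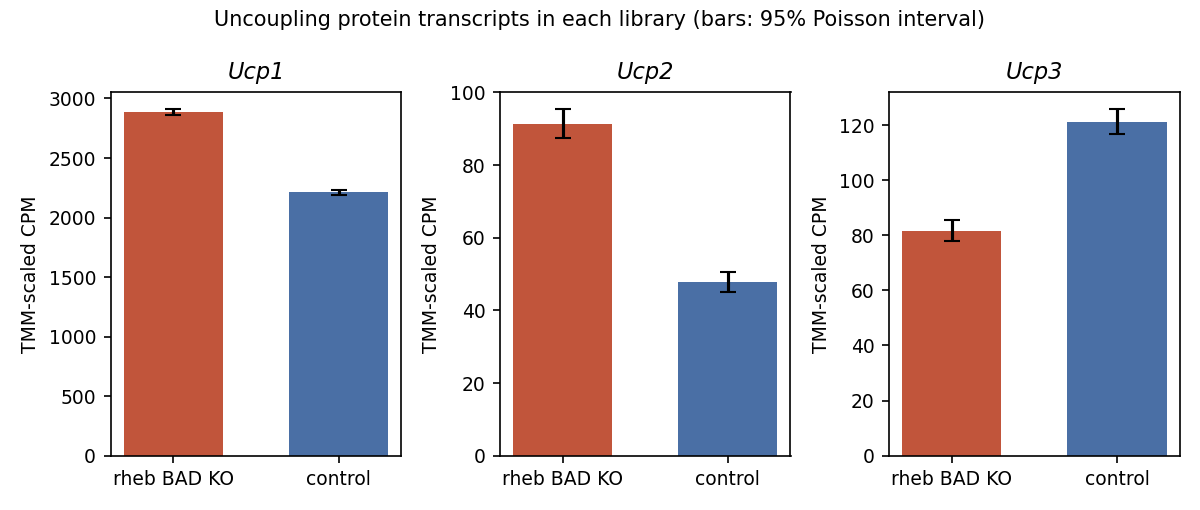
TMM-scaled CPM of each uncoupling protein gene in the rheb BAD KO library (left bar) and the control library (right bar), with 95% Poisson intervals and a separate axis from 0 for each gene. Ucp1 (2887 against 2211 CPM) and Ucp2 (91.3 against 47.7 CPM) were higher in the knockout library, and Ucp3 (81.7 against 121 CPM) was lower.

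Ucp2 was the member with the largest difference. It had 2068 counts in the knockout library (91.3 CPM, 87.4 to 95.3) and 1092 in the control library (47.7 CPM, 45.0 to 50.7). The ratio was 1.91 (1.78 to 2.06), so Ucp2 counted as higher in the knockout library. By counts it ranked 1163rd among nuclear protein-coding genes in the knockout and 2403rd in the control library.

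Ucp3 lay on the other side of the control level. It had 1851 counts in the knockout library (81.7 CPM, 78.1 to 85.5) and 2771 in the control library (121 CPM, 117 to 126). The ratio was 0.675 (0.636 to 0.716), which is 1.48-fold lower and just short of the 1.5-fold limit. By counts Ucp3 ranked 1336th in the knockout and 797th in the control library. With plain total counts as the scale it was 1.62-fold lower and passed the limit; by the size rule it did so under none of the other 6 scalings tried, although TMM factors from protein-coding genes put its ratio without the pseudocount, 0.666, at the limit.

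These sizes are to be read beside the spread of all genes. Of the 12973 genes, 2839 (21.9%) counted as higher and 2839 (21.9%) as lower, so 1 higher gene among 3 members is near the background share. With total counts the split was 2258 higher and 3527 lower, and leaving mitochondrially encoded genes and their chromosome 1 pseudogenes out of the totals gave 3786 higher and 2532 lower; these scalings moved the median log2 ratio, which was -0.003 over all genes with TMM, to -0.13 and 0.12. A larger ratio than that of Ucp2 was seen in 10.7% of the genes and a larger one than that of Ucp1 in 30.3%, and 22.8% had a smaller ratio than Ucp3.

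**Figure D2:**
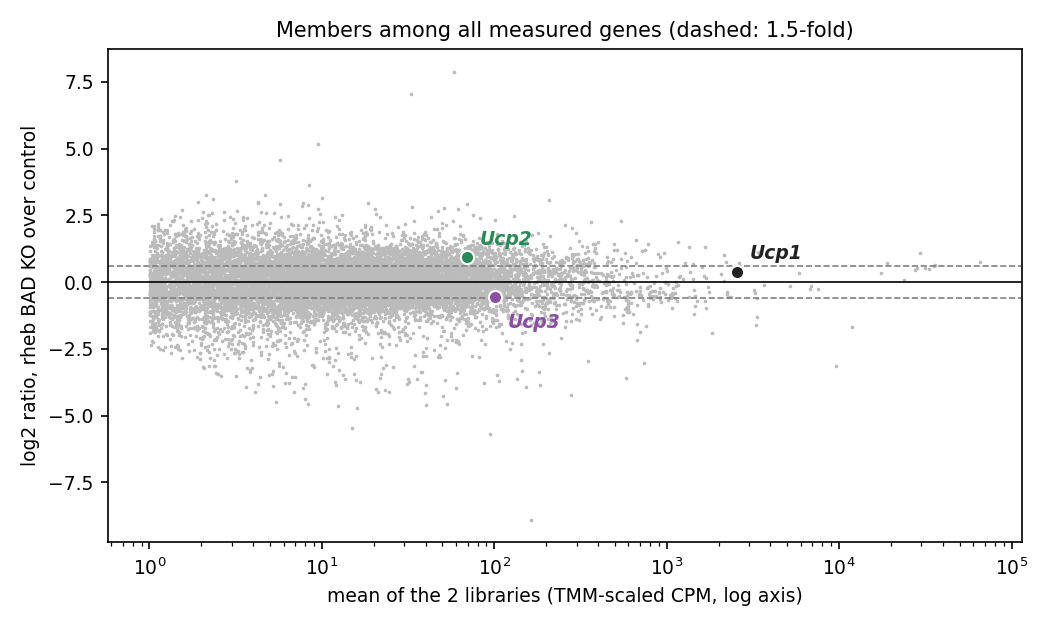
Log2 ratio of rheb BAD KO over control (CPM plus 0.5) against the mean CPM of both libraries on a log axis, for 12973 genes in grey and the 3 members in colour; dashed lines mark 1.5-fold. Ucp2 lies above the upper line, and Ucp1 and Ucp3 lie between the lines.

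**Figure D3:**
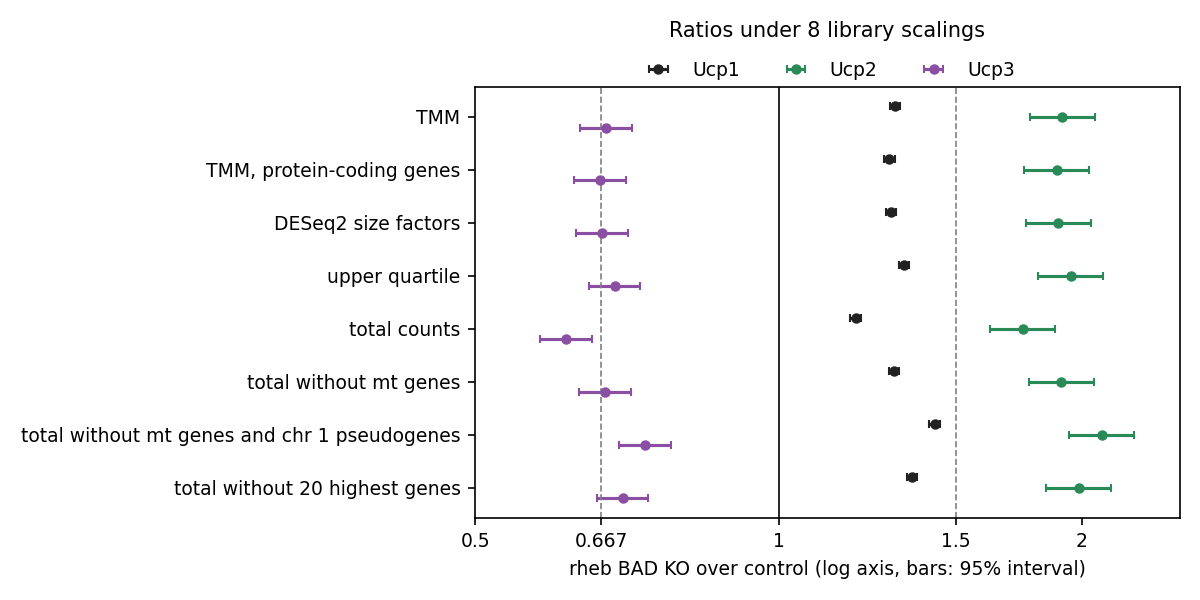
Ratio of each member, rheb BAD KO over control, on a log axis under 8 ways of scaling the libraries, with 95% counting intervals; dashed lines mark 1.5-fold either way. Ucp1 ran from 1.19 to 1.43 and Ucp2 from 1.75 to 2.09, and Ucp3 ran from 0.616 to 0.738.

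The makeup of the uncoupling protein transcripts does not depend on the scale between libraries. The 3 genes together had 69294 counts in the knockout and 54427 in the control library. Ucp1 took 94.3% of them in the knockout library (exact binomial interval 94.2 to 94.5) and 92.9% in the control library (92.7 to 93.1). Ucp2 took 2.98% (2.86 to 3.11) in the knockout library and 2.01% (1.89 to 2.13) in the control library. Ucp3 took 2.67% (2.55 to 2.79) in the knockout library and 5.09% (4.91 to 5.28) in the control library. The control library thus held more Ucp3 than Ucp2 counts, and the knockout library slightly more Ucp2 than Ucp3 counts.

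The proportions between the members differed between the libraries beyond the counting intervals, which treat every read as independent. Ucp2 per Ucp3 count was 1.12 in the knockout and 0.394 in the control library, a 2.83-fold difference (exact conditional interval 2.58 to 3.12). Ucp1 per Ucp3 count was 35.3 in the knockout and 18.2 in the control library, 1.94-fold higher in the knockout library (1.82 to 2.06). Ucp1 per Ucp2 count was 31.6 in the knockout and 46.3 in the control library, a ratio of 0.683 (0.633 to 0.736). As shares of all counts, Ucp1 made up 0.276% of the knockout and 0.231% of the control library, Ucp2 0.00873% of the knockout and 0.00500% of the control library, and Ucp3 0.00781% of the knockout and 0.0127% of the control library.

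**Figure D4:**
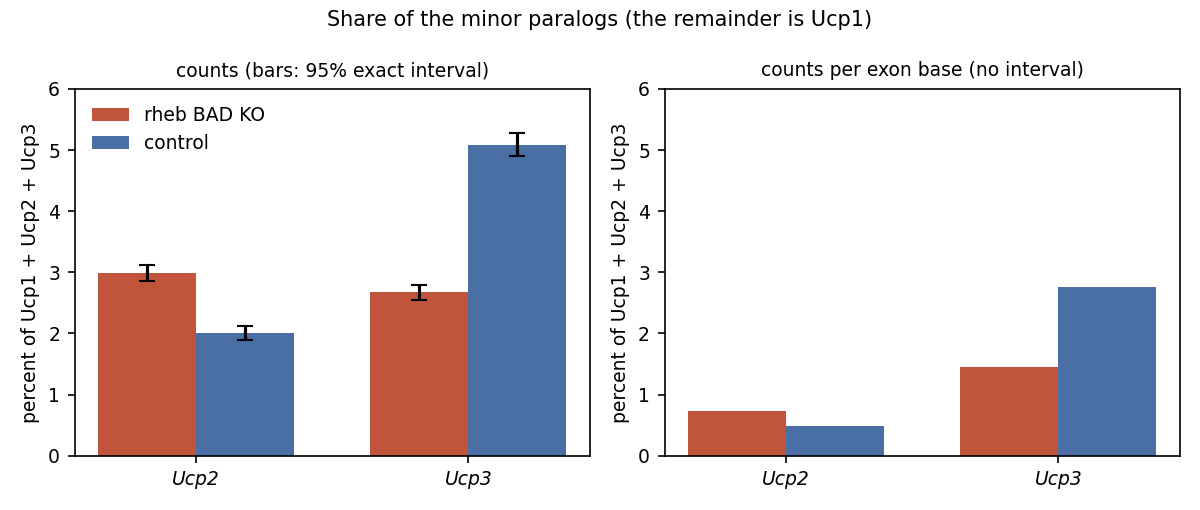
Percent of the summed Ucp1, Ucp2 and Ucp3 signal taken by Ucp2 and by Ucp3 in the rheb BAD KO library (left bar of each pair) and the control library (right bar), as counts with 95% exact binomial intervals (left panel) and as counts per exon base without an interval (right panel). Ucp2 is larger in the knockout library (2.98% against 2.01% of counts), Ucp3 is smaller (2.67% against 5.09% of counts), and the remainder is Ucp1.

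Levels of different genes can be compared only per length, and for Ucp2 and Ucp3 the length itself is uncertain. The Ucp2 row counts reads over 6989 exon bases from 11 annotated transcripts, 1 of them a retained intron model. The Ucp3 row covers 3135 bases from 4 annotated transcripts, and the Ucp1 row 1636. Ucp3 has principal coding transcripts of 2448 and 1260 bases, and only the longer one was used. On the table's lengths the order was Ucp1, Ucp3, Ucp2 in both libraries. Ucp3 stood at 26.1 RPKM in the knockout and 38.6 RPKM in the control library, and Ucp2 at 13.1 RPKM in the knockout and 6.83 RPKM in the control library. With the longest principal coding transcript as length (3988 bases for Ucp2, 2448 for Ucp3), Ucp2 came to 22.9 RPKM in the knockout and 12.0 RPKM in the control library, and Ucp3 to 33.4 RPKM in the knockout and 49.5 RPKM in the control library, so the order was the same. Ucp1 exceeded Ucp3 per table length 67.7-fold in the knockout and 35.0-fold in the control library.

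Neighbouring rows were checked for shared reads, since the library kit does not mark strand. No row of the table overlaps Ucp1. Elmod2, 14179 bases beyond it on the other strand, had 1128 counts in the knockout and 750 in the control library (ratio 1.52, 1.38 to 1.67), and Tbc1d9, 17417 bases before it, had 164 counts in the knockout and 154 in the control library. The last 305 bases of the Ucp2 span overlap Dnajb13, a gene on the opposite strand with 9 counts in the knockout and 13 in the control library. The antisense gene Gm10603 overlaps 1857 bases at the start of Ucp3 and had 119 counts in the knockout and 93 in the control library. Reads in these overlaps cannot be assigned to a strand.

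The nearest kin of the uncoupling proteins among the carriers were scarce. Slc25a14, also called UCP5, had 60 counts in the knockout and 53 in the control library (2.65 and 2.32 CPM, ratio 1.14, 0.777 to 1.69). Slc25a27, also called UCP4 and best known from brain, had 135 counts in the knockout and 86 in the control library (5.96 and 3.76 CPM, ratio 1.59, 1.20 to 2.10) and counted as higher, except with total counts or with TMM factors from protein-coding genes. Slc25a30 had 97 counts in the knockout and 98 in the control library (ratio 1.00, 0.747 to 1.34). The ADP/ATP carriers exchange the nucleotides across the same membrane and can also leak protons. The 2 measured ones both counted as lower, beside 21.9% of all genes. The exception was Slc25a5 when mitochondrially encoded genes and their pseudogenes were left out of the totals. Slc25a4 had 222 CPM in the knockout and 400 CPM in the control library (1.81-fold lower, 1.74 to 1.87), and Slc25a5 had 232 CPM in the knockout and 364 CPM in the control library (1.57-fold lower, 1.51 to 1.62). The summed level of skeletal muscle markers was 9.89-fold lower in the knockout library, and the part of muscle RNA in these values was not tested.

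Regulators of Ucp1 transcription were called in both directions, as were all genes, of which 21.9% counted as higher and 21.9% as lower. Of 21 measured activators 7 counted as higher, 4 as lower and 10 as neither, with a median log2 ratio of 0.22, against -0.003 over all genes. The PGC-1 coactivators Ppargc1a (180 CPM in the knockout and 75.8 CPM in the control library, 2.38-fold higher) and Ppargc1b (2.72-fold higher) had, with the CREB-family factor Atf2 (2.41-fold), the 3 largest ratios of the list. Cebpa, a factor of adipocyte differentiation, had 168 CPM in the knockout and 455 CPM in the control library (2.71-fold lower). Of 9 genes known to restrain Ucp1, 3 counted as higher, 3 as lower and 3 as neither (median log2 ratio 0.10, and -0.03 with total counts). Among them the corepressor Nrip1 was 1.74-fold lower, while Tle3 was 1.73-fold and the Notch effector Hes1 1.59-fold higher. The retinoblastoma gene Rb1 had a ratio of 0.668.

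The next genes belong to the route by which noradrenaline and fatty acids open UCP1. Adrb3, the main adrenergic receptor of adipocytes, had 60.9 CPM in the knockout and 229 CPM in the control library (3.75-fold lower, 3.54 to 3.99), and Adrb1 was 2.01-fold lower. Adcy3, an adenylyl cyclase, was 1.85-fold higher, and Cpt2, which completes the entry of fatty acids into mitochondria, was 2.74-fold lower. Of 18 genes of this route 3 counted as higher, 4 as lower and 11 as neither (median log2 ratio -0.18), beside 21.9% of all genes in each direction.

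Among targets of the PPAR nuclear receptors, a class to which Ucp3 is known to belong, 1 of 14 measured genes counted as higher, 6 as lower and 7 as neither. Over all genes 21.9% counted as higher and 21.9% as lower. The targets' median log2 ratio was -0.56, and that of Ucp3 was -0.56 as well. Skeletal muscle also expresses several of these targets, Fabp3 among them, and the summed level of its markers was 9.89-fold lower in the knockout library; the part of muscle RNA in these values was not tested. The thioesterase gene Acot2 was 2.56-fold lower, the lipid binding gene Fabp3 1.90-fold and the lipase inhibitor Angptl4 1.79-fold lower. The hormone gene Fgf21, a further target, averaged under 1 CPM with 9 counts in the knockout and 23 in the control library.

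Nuclear genes for mitochondrial proteins were set beside Ucp1. Of 14 such genes, 6 counted as lower, none as higher and 8 as neither, beside 21.9% of all genes in each direction, with a median log2 ratio of -0.47. Sdha, a subunit of succinate dehydrogenase, was 1.96-fold lower, Uqcrc2 of complex III 2.61-fold, Ndufs1 of complex I 1.81-fold and the outer membrane channel Vdac1 2.40-fold. None of the 14 had a ratio as large as that of Ucp1. Set against their summed counts, Ucp1 had 0.266 counts per count in the knockout and 0.152 in the control library, 1.75-fold higher. Skeletal muscle also expresses these genes, and its markers were lower in the knockout library; the part of muscle RNA in these differences was not tested.

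Ucp1 took the middle of the brown adipocyte markers. Beside 21.9% of all genes in each direction, 3 of the 13 markers counted as higher, 2 as lower and 8 as neither (6 as higher when mitochondrially encoded genes and their pseudogenes were left out of the totals), with a median log2 ratio of 0.39 that lay beside the 0.38 of Ucp1. Of the 3 higher markers, Epsti1 (1.72 CPM in the knockout and 0.874 in the control library) passed the 1 CPM filter only through the knockout library, which favours a higher call. Dio2, whose enzyme makes active thyroid hormone within the cell, was 4.06-fold higher, whereas the elongase Elovl3 was 2.02-fold lower and the lineage factor Ebf2 1.97-fold lower. Ucp1 had 0.833 counts per summed marker count in the knockout and 0.632 in the control library, 1.32-fold higher. This quotient leans on Cidea, which was 1.46-fold lower in the knockout library. Cidea alone held 24830 of the 78465 summed marker counts in the knockout library and 36622 of 79961 in the control library.

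**Figure D5:**
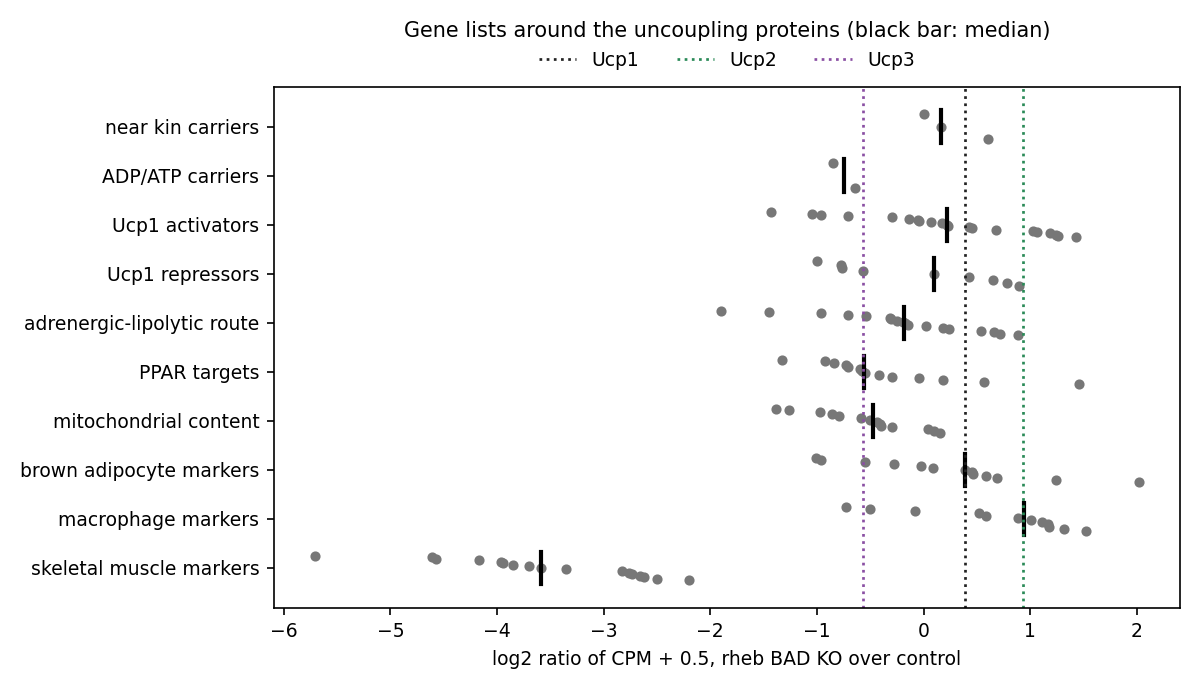
Log2 ratios (CPM plus 0.5), rheb BAD KO over control, of the measured genes of 10 lists, with the list median as a black bar and the ratios of Ucp1, Ucp2 and Ucp3 as dotted lines. Ucp2 (0.93) lay beside the macrophage median (0.94), Ucp3 (-0.56) beside the PPAR target median (-0.56), and the skeletal muscle markers were all far to the left (median -3.58).

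Macrophages are among the cells known to express Ucp2, and their markers differed between the libraries. Of 12 macrophage markers, all detected in both libraries, 7 counted as higher, 1 as lower and 4 as neither. Of the 7, Itgam (1.81 CPM in the knockout and 0.525 in the control library) passed the 1 CPM filter only through the knockout library, which favours a higher call. Over all genes 21.9% counted as higher and 21.9% as lower. The markers' summed level was 197 CPM in the knockout and 108 CPM in the control library (1.82-fold). The complement gene C1qb was 2.59-fold higher and the receptor gene Csf1r 2.22-fold higher. Cd14, the 1 lower marker, had 32 counts in the knockout and 61 in the control library. Adgre1, which counted as neither, had 37 in the knockout and 40 in the control library. Lyz2 alone held 1497 of the 4456 summed marker counts in the knockout library and 1005 of 2475 in the control library. Ucp2 had 0.464 counts per macrophage marker count in the knockout and 0.441 in the control library, so that this quotient differed 1.05-fold where Ucp2 itself differed 1.91-fold. The part of macrophage RNA in the Ucp2 difference was not tested.

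Skeletal muscle markers moved with Ucp3 but much further. All 17 markers with a mean of at least 1 CPM counted as lower, beside 21.9% of all genes. The summed level of the 18 was 374 CPM in the knockout and 3697 CPM in the control library (9.89-fold lower). Tnnc2, the remaining marker, is listed at 0 counts in both. Myh7, the slow myosin, had 69 counts in the knockout and 4223 in the control library. Ucp3 had 0.219 counts per muscle marker count in the knockout and 0.0328 in the control library, a 6.67-fold difference. Against the brown adipocyte marker sum Ucp3 had 0.0236 counts per count in the knockout and 0.0347 in the control library, a ratio of 0.681. That sum leans on Cidea, which was 1.46-fold lower in the knockout library. The part of muscle RNA in the Ucp3 difference was not tested.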

How the data were processed

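Per the labels' protocols, mRNA of Trizol extracts went into TruSeq RNA v2 libraries, a chemistry that does not mark strand. Per the submitters' processing notes, Trimmomatic, HISAT2 and featureCounts were used with mm10; their versions, the annotation release and the handling of reads with several matches are not stated in the labels or the table. The deposited table holds raw counts per Ensembl gene and an exon length in bases (other annotation columns were not used as measurements). Gene types and transcripts came from GENCODE M21, which matched 54409 identifiers, and promoter windows from RefSeq, which held all 3 members.

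Counts were scaled to CPM with TMM factors (edgeR 4.0.16, R 4.3.3; genes with at least 1 count). Ratios are of scaled counts with 95% exact binomial (Clopper-Pearson) intervals, and differences between pairs of members have exact conditional intervals (scipy 1.17.1). The intervals cover counting error only. They treat every read as independent, so PCR copies, which are not independent molecules, would make them too narrow. With 1 library per group no p-value was computed. The members and the 17 gene lists (173 symbols, all found) were chosen with earlier results of these data known. Named genes are the members, their kin and neighbours, Rheb, and up to 4 genes per list with the largest absolute ratio at a mean of at least 10 CPM; some genes this rule takes are not reported here. Genes named outside this rule were chosen after their values were seen. They are Fgf21, Tnnc2, Cd14, Adgre1, Lyz2, Itgam, Lum, Cidea, Epsti1 and all the neutrophil genes, S100a9 and Csf3r among them. DESeq2 1.42.0 size factors and 6 other scalings were tried as alternatives. The size rule and its intervals were tested on simulated counts.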

Additional observations from a re-analysis of the deposited data

How the results depend on the processing

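No paired analysis was possible because there is 1 pooled library per genotype, and no library could be left out. The direction of Ucp1, Ucp2 and Ucp3 was the same under all 8 scalings. The Ucp1 ratio was 1.19 with total counts, 1.36 without the 20 highest genes, 1.33 with upper-quartile factors, 1.29 with TMM factors from protein-coding genes, and 1.43 when mitochondrially encoded genes and the chromosome 1 pseudogenes were left out of the totals, an alternative chosen after seeing the data. These 2 extremes gave 1.75 and 2.09 for Ucp2, and 0.616 and 0.738 for Ucp3. By the 1.5-fold size rule Ucp3 counted as lower with total counts alone. That scaling gives the knockout library a larger size relative to the control library (1.08, against 0.990 with TMM), which lowers every ratio by construction. The difference in the Ucp1 share, 1.09 percentage points per exon length, was 1.44 by plain counts and 1.26 with principal transcript lengths, the last also chosen after seeing the data. Genes counted as higher and lower numbered 1579 and 1514 at a mean of at least 10 CPM, and 1201 and 1294 at 2-fold, by construction of the stricter limits. The single library per group, the sex-linked difference between the libraries and, for genes with few counts such as Slc25a14 (60 counts in the knockout and 53 in the control library), depth limit these values.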

Other observations

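Other marker lists were measured beside the 3 genes, and their counts are to be read beside 21.9% of all genes in each direction. Erythroid genes were higher in the knockout library in all 5 measured cases, with a summed level of 5823 CPM in the knockout and 2263 CPM in the control library, and Hba-a1, an alpha-globin gene, was 2.86-fold higher. Of 10 neutrophil genes 5 averaged 1 CPM or more, and all 5 were higher (median log2 ratio 2.57). Among them S100a9 had 415 counts in the knockout and 37 in the control library, and Csf3r 384 and 56. Retnlg (2.12 CPM in the knockout and 0.175 in the control library) and Cxcr2 (1.72 and 0.350) passed this filter only through the knockout library, which favours a higher call. Of those below it, Ngp had 8 counts in the knockout and 1 in the control library, Ltf 10 and 4, Ly6g 4 and 0, and Camp 2 and 3. Mpo had 0 in both. Ucp2 is also known from such blood cells; it had 0.0157 counts per erythroid marker count in the knockout and 0.0211 in the control library, and 1.69 counts per neutrophil marker count in the knockout and 7.43 in the control library. None of the 8 lymphocyte genes reached a mean of 1 CPM. Fibroblast genes counted as higher in 3 of 8 cases, as lower in 1 and as neither in 4 (median 0.38). Pdgfrb was 3.03-fold higher, and Lum, the 1 lower gene, was 1.72-fold lower. Of 6 endothelial genes 1 counted as higher, Vwf at 3.42-fold, and the median was -0.01, positive under 3 of the other scalings. Of 6 measured white adipocyte genes 2 counted as higher, led by Agt (2.72-fold), and 2 as lower, led by Npr3 (4.21-fold lower). All 5 sex-linked genes differed, 4 of them Y-linked and higher in the knockout library.

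Genes with the closest log2 ratio, among those within 2-fold of a member's mean CPM, describe a likeness over 2 libraries only. For Ucp1, 35 genes were as abundant, and the closest was Cfd, the adipocyte protein adipsin (1526 CPM in the knockout and 1190 CPM in the control library, ratio 1.28), followed by the lactate dehydrogenase gene Ldha (1.22) and the elongation factor gene Eef1a1 (1.18). For Ucp2 the closest of 2671 genes were Man2a2, Cd63 and Ccnt2, with ratios of 1.91 each. For Ucp3 the closest of 1849 genes were Sod3, Paip2 and Sfxn1, with ratios of 0.674, 0.675 and 0.676.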
